A study of Caenorhabditis elegans with 2 samples.

Results

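The loci described are the nuclear transfer RNA (tRNA) genes of Caenorhabditis elegans, taken as all 612 genes of biotype tRNA on the nuclear chromosomes of the WBcel235 annotation, each extended by 200 bp on both sides. The 22 mitochondrial tRNA genes were not included. No measured value entered this rule, although the class was chosen with earlier results of these data known. Of the 612 genes, 64 had the summit of a ZAG-1 peak that passed the authors' reproducibility threshold in their window, and 55 of the 1784 such summits on nuclear chromosomes lay in these windows. All 612 genes had the same coordinates in RefSeq, which names the amino acid for 607 of them.

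The study mapped where the transcription factor ZAG-1 sits on chromatin, by chromatin immunoprecipitation and sequencing in whole L2 larvae. The strain was OP83, genotype unc-119(ed3) III; wgIs83, in which an insertion expresses ZAG-1 tagged with eGFP, and males and females were pooled. There were 2 biological replicates from the same strain, which form 1 group, with no second strain, stage or treatment. The deposited lists hold 24146 candidate peaks from replicate 1, 29374 from replicate 2 and 16325 from the data pooled, and 1803 peaks past an irreproducible discovery rate (IDR) threshold. The replicates share a control alignment, so their lists are not fully independent. All 1803 IDR-thresholded peaks are also in the pooled list, where they are the top ranks, so those lists are not separate evidence. The lists hold no read counts and the depth is unknown. Whole larvae give no cell type for any peak.

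ZAG-1 belongs to the ZEB family of zinc finger homeodomain proteins and is known for its part in neuron differentiation. Nuclear tRNA genes are transcribed by RNA polymerase III from a promoter inside the gene, made of an A box and a B box. The factor TFIIIC recognises these boxes and places TFIIIB just upstream of the gene, and a run of T residues after the gene ends transcription. Many tRNA genes are identical copies of each other, and some lie in introns of protein-coding genes, which RNA polymerase II transcribes.

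The genes themselves are short, with a median length of 72 bp, and each is shown 5′ to 3′ on its own strand, from RefSeq and Ensembl coordinates on WBcel235 (the same assembly as ce11). Capitals mark the B box, searched as GTTCNANNC on the strand of the gene. The proline gene F46G11.t1 (chrX:5801472-5801543, plus strand) is shown because its sequence, which has 24 copies, had IDR-thresholded summits at 6 of them. The others are F46G11.t2, ZK899.t1, T23F1.t2, W09D6.t1 and W09D6.t2. The 6 genes have fewer separate summits, because F46G11.t1 and F46G11.t2 share the same one, as do W09D6.t1 and W09D6.t2. The lysine gene C33G3.t2 (chrX:14063946-14064018, minus strand) and the histidine gene W09G10.t1 (chrII:3521487-3521558, minus strand) carried summits inside the gene. The proline genes C16B8.t2 (chrX:3970096-3970167, plus strand) and C16B8.t3 (chrX:3970265-3970336, plus strand) are the only members with an IDR-thresholded summit that lack the searched B box letters.
F46G11.t1: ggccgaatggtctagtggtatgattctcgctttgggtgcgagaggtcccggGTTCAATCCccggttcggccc
C33G3.t2: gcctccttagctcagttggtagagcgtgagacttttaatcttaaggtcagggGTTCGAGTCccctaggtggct
W09G10.t1: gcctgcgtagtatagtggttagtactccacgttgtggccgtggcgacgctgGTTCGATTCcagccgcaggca
C16B8.t2: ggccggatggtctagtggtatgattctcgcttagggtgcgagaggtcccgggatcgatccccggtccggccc
C16B8.t3: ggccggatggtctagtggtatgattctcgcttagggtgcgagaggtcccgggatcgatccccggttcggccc

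In the 3 neighbouring pairs of tRNA genes that led by score, the genes point away from each other and the summit lay in the stretch between them. That stretch is shown on the plus strand, with capitals for every match, on either strand, to the 5 short sequences searched at summits (the E-box CAGGTG, the GA repeat GAGAGA, the sequence CGTCTC, the sequence ACGCAG and the CA repeat CACACA). Between M02F4.t2 and M02F4.t1 (chrX:3036048-3036163) the summit is base 97 and the capitals are the reverse complement of CACACA. Between F46G11.t2 and F46G11.t1 (chrX:5801283-5801471) the summit is base 135, and the second run in capitals joins GAGAGA with an overlapping reverse complement of CGTCTC. Between C53C7.t2 and C53C7.t1 (chrX:13046448-13046577) the summit is base 30 and GAGAGA occurs at 2 places. A match describes the letters only.
M02F4: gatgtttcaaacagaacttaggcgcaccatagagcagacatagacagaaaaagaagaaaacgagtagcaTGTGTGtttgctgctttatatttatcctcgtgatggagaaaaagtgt
F46G11: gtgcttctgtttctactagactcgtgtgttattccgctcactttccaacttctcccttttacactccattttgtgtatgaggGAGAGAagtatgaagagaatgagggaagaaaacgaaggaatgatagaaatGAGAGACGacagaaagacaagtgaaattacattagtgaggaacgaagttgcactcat
C53C7: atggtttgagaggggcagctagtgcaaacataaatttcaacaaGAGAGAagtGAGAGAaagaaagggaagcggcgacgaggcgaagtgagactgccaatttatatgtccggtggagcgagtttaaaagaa

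ZAG-1 summits lay at a minority of tRNA genes in the IDR-thresholded list and at many more in the candidate lists, which also hold weak peaks. In the IDR-thresholded list, 64 of 612 genes (10.5%, 95% Wilson interval 8.27% to 13.1%) had a summit within 200 bp, against 0.834% of stretches of 472 bp tiled over the nuclear genome. In the pooled list it was 295 genes (48.2%, interval 44.3% to 52.2%), against 7.43% of the stretches. Replicate 1 had a summit at 306 genes (50%) and replicate 2 at 293 (47.9%), against 10.9% and 13.3% of the stretches. Both replicates had a summit at 205 genes (33.5%), against 3.68% of the stretches, and 215 genes had none in any of the 4 lists. The intervals cover the counting of genes only. They treat the genes as separate, although 9 of the 55 summits lie in the windows of 2 genes each.

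The windows together cover 273122 bp, or 0.272% of the nuclear genome, and they held 3.08% of its IDR-thresholded summits, a ratio of 11.3. Among candidates, the windows held 285 pooled summits (1.75% of the nuclear ones), in replicate 1 299 (1.24%) and in replicate 2 283 (0.964%).

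Other features were read in the same way, with 200 bp on both sides. Of 209 tRNA pseudogenes in RefSeq, which resemble tRNA genes in sequence, 0 had an IDR-thresholded summit, which allows a share of up to 1.44%, and 10 (4.78%, interval 2.62% to 8.58%) had a pooled summit. In the replicates, 23 pseudogenes (11%) and 19 (9.09%) had a summit, beside the 10.9% and 13.3% of genome stretches. Small nucleolar RNA genes, whose products guide RNA modification, had an IDR-thresholded summit at 45 of 346 (13.0%, interval 9.86% to 17.0%), and a pooled one at 123 (35.5%). Small nuclear RNA genes, which encode spliceosome RNAs, had one at 11 of 129 (8.53%, interval 4.83% to 14.6%) and a pooled one at 33 (25.6%). The intervals of these classes overlap that of the tRNA genes in the IDR-thresholded list. MicroRNA genes were lower, with 6 of 261 (2.30%, interval 1.06% to 4.92%), and protein-coding gene starts had 2.24% (448 of 19973) in windows of the median tRNA window's length. None of these differences was tested.

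**Figure D1:**
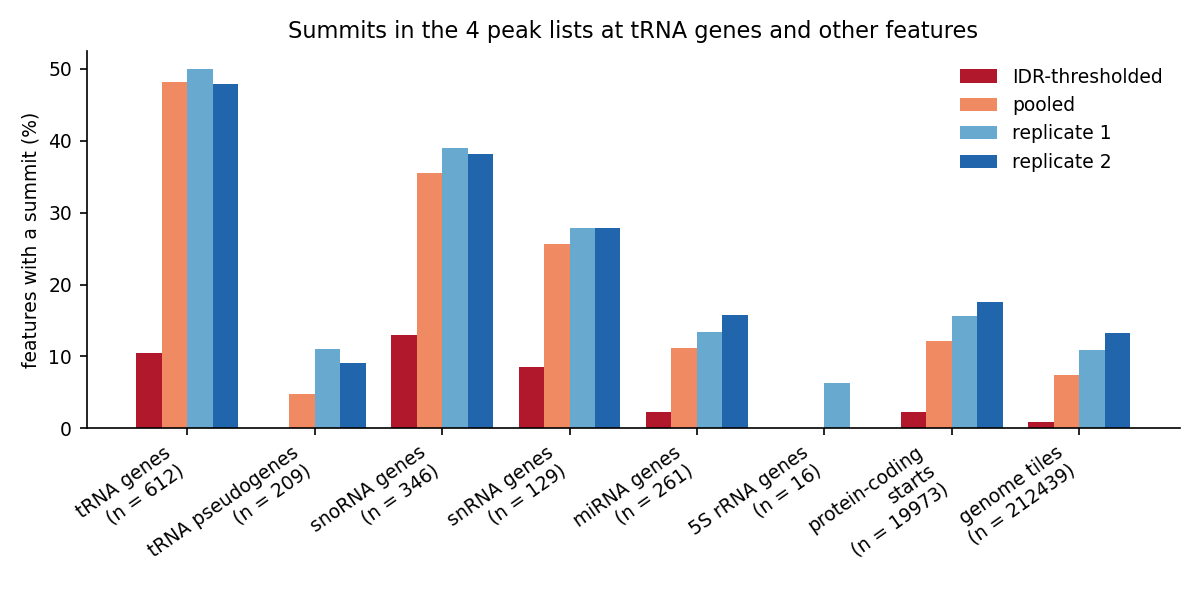
Share of features (%) with a peak summit in the gene extended by 200 bp, for the IDR-thresholded, pooled and replicate lists; protein-coding starts and genome tiles are windows of 472 bp. tRNA genes reach 48.2% in the pooled list against 4.78% for tRNA pseudogenes and 7.43% for the genome tiles.

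A list of 19 loci covered some, not all, of the other genes transcribed by RNA polymerase III. It held 16 5S ribosomal RNA genes named rrn-4, of which 11 share a symbol and were told apart by gene identifier. It also held the RNA of RNase P (rpr-1), the RNA of RNase MRP (mrpr-1) and the Y RNA yrn-1. Of these 19 loci, only rpr-1 had an IDR-thresholded summit, with a score of 49.1. The 16 rrn-4 genes had 0 summits in both the IDR-thresholded and the pooled list, which allows a share of up to 18.8%. These repeated genes share sequence, and how the authors treated reads that fit several places was not stated. Of 20 aminoacyl-tRNA synthetase genes found of 21 listed, whose products charge tRNAs with amino acids, 1 had a summit in its promoter (mars-1, for methionine, score 32.0). Of 12 genes for RNA polymerase III, its factors and its regulator, 0 had one. The share of all nuclear protein-coding genes was 4.37% (873 of 19973), and 12 genes are too few to be set apart from it. The promoter was taken as 500 bp upstream to 100 bp downstream of the start.

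Summits sat on or next to the gene. Of the 55 IDR-thresholded summits, each assigned to its nearest tRNA gene, 24 lay upstream of that gene, 21 inside it and 10 downstream. The median position was 12 bp downstream of the 5′ end, with a range from -107 to 122 bp, and 54 of the 55 were within 60 bp of the gene. For the 376 genes with no other tRNA gene within 1000 bp, the 41 IDR-thresholded summits had a median position of 16 bp, with quartiles at -19 and 43 bp. The medians for these genes in the candidate lists were 23 bp (pooled, 197 summits), 25 bp (replicate 1, 213 summits) and 18.5 bp (replicate 2, 192 summits), and these differ by less than the distance between replicate summits given below. From the 1803 highest peaks of each replicate alone, over all tRNA genes, the median was -1 bp in replicate 1 and 18 bp in replicate 2, so the side of the 5′ end on which the median falls depends on the replicate. In the pooled list, 14.4 summits per 100 single genes fell in the 50 bp before the 5′ end and 12.5 in the 50 bp after it. The count was 2.13 per 100 genes between 151 and 200 bp upstream. The positions are coarser than they look, because most peaks are 376 bp wide and the summits of the same tRNA gene in replicate 1 and replicate 2 were a median of 54 bp apart over the 205 genes with both.

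**Figure D2:**
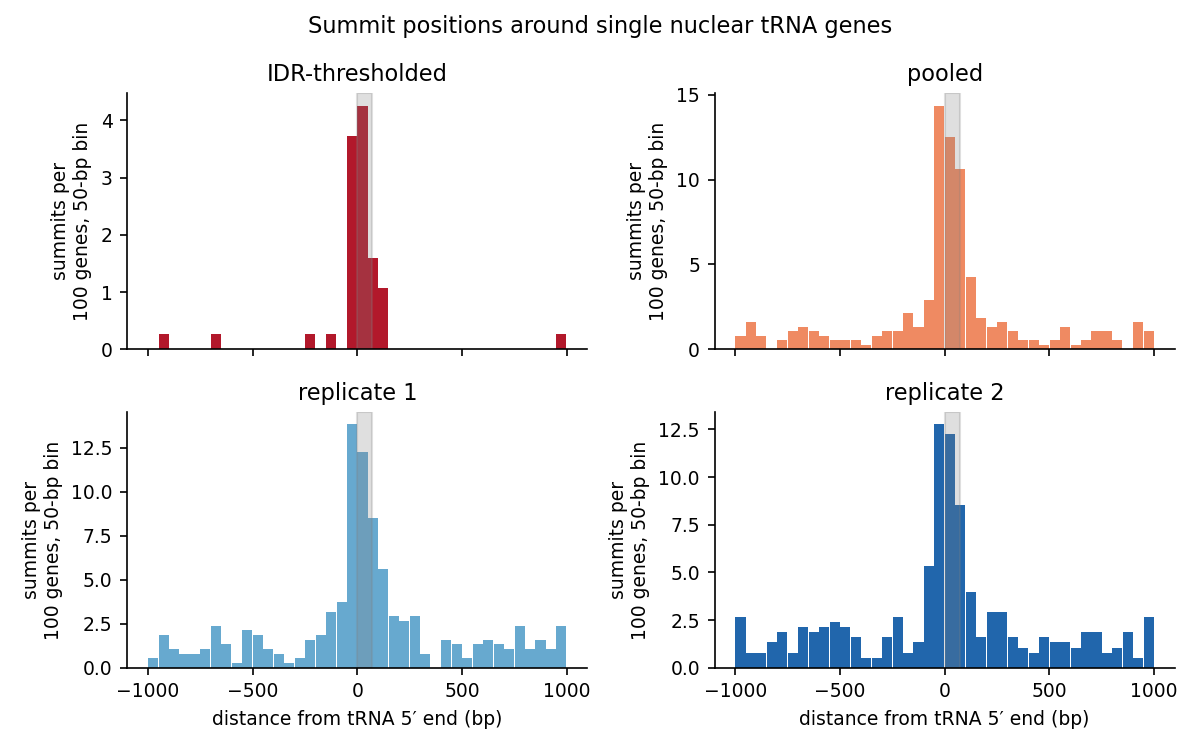
Summits per 100 single tRNA genes in bins of 50 bp by distance from the 5′ end (bp, negative upstream), for each of the 4 lists; the grey band is the median gene of 72 bp. The bins next to the 5′ end are highest in all 4 panels, with 14.4 pooled summits per 100 genes just upstream.

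In rank, the summits at tRNA genes leaned to the lower part of the IDR-thresholded list and to the upper part of the candidate lists. The score is the authors' own value per peak and was read only within a list. IDR-thresholded peaks at tRNA genes had scores between 29.97 and 95.3, with a median of 39.3 against 44.3 for all its nuclear peaks. Their median rank was 1132, and 21 of the 55 (38.2%) were in the higher-scoring 50% of the list, against 49.9% of the other nuclear summits. The best rank was 145. Of the 100 highest-scoring peaks, 88 were on nuclear chromosomes, and 0 of these lay at a tRNA gene. These are too few peaks to compare with the 3.08% of the whole list. In the pooled list the median was 17.4 against 12.5, in replicate 1 10.6 against 7.25, and in replicate 2 7.65 against 4.56. By blocks of 1803 ranks, the share of pooled nuclear summits at tRNA genes was 3.08%, 3.83%, 2.496% and 2.05% in the first 4 blocks and between 0.776% and 0.998% in the next 5. Replicate 1 gave 2.92%, 3.05%, 2.38% and 2.00% in its first 4 blocks, and replicate 2 gave 3.91%, 2.77%, 2.00% and 0.721%. In both replicates the share was higher in each of the first 3 blocks than in any block after the fourth.

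**Figure D3:**
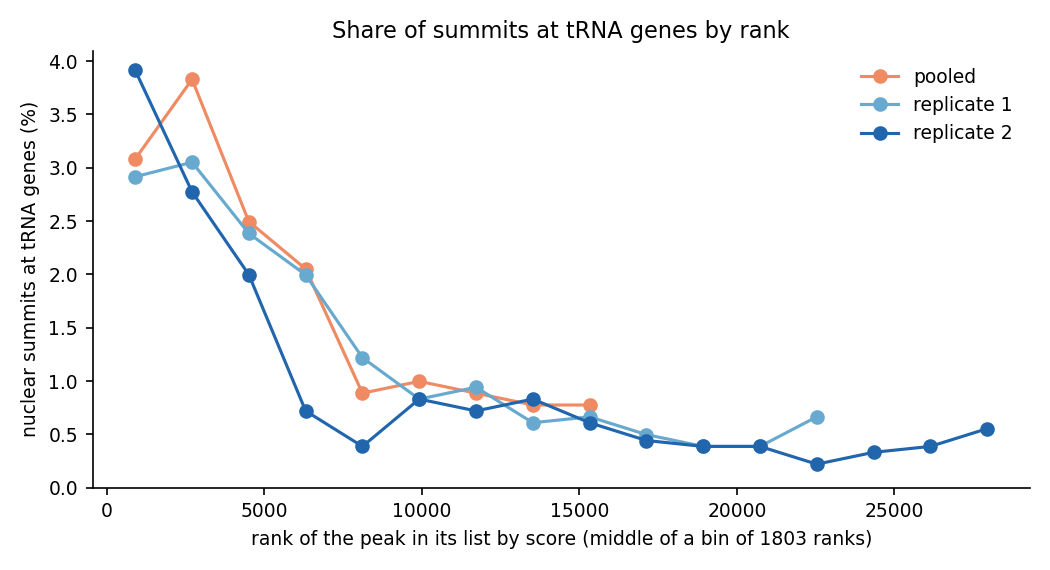
Share of nuclear summits (%) that lie at a tRNA gene, by rank of the peak within its list in blocks of 1803 ranks, for the pooled and the 2 replicate lists. The pooled share is 3.08% in the first block, 3.83% in the second and below 1% from the fifth block shown onward.

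Most of the highest-scoring summits were on X, and 4 of the first 12 lay between paired genes. The summit between M02F4.t2, a glutamate tRNA gene, and M02F4.t1, a glycine tRNA gene, had a score of 95.3 and was ranked 212 in replicate 1 and 168 in replicate 2. The summit between the proline genes F46G11.t2 and F46G11.t1 had a score of 80.1 and ranks of 155 and 434. The summit between the serine genes C53C7.t2 and C53C7.t1 had a score of 65.6 and ranks of 438 and 508. These 3 pairs are those whose intervening sequence is printed above. Both replicates placed each of them among their 508 highest peaks.

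Among the other 9 of these 12 summits, C33G3.t2 (lysine) led with a score of 72.03 and ranks of 621 in replicate 1 and 136 in replicate 2, and its summit was 23 bp into the gene. B0523.t1, a tryptophan gene in an intron of fli-1 on chromosome III, followed with a score of 55.9 and ranks of 468 and 1326. Its host gene is the C. elegans homologue of flightless, an actin-binding protein. The next on X were C04C11.t1 (glutamate, score 55.2, ranks 726 and 515), ZK899.t1 (proline, score 55.1, ranks 693 and 717) and R04D3.t2 (valine, score 53.9, ranks 881 and 501). C06G1.t1 (histidine, in an intron of C06G1.1) had a score of 52.8 and ranks of 550 and 1264, and C04E7.t1 (leucine) had a score of 51.3 and ranks of 870 and 517. Off X, W09G10.t1 (histidine, in an intron of the collagen gene col-72 on chromosome II) had a score of 52.1 and ranks of 1039 and 471. The proline pair W09D6.t2 and W09D6.t1, in an intron of rsa-2 on chromosome III, shared a summit with a score of 50.3 and ranks of 591 and 1180. Of these 12 summits, 9 were on X. Those at C04C11.t1, W09G10.t1 and C04E7.t1 also lay in the promoter, as taken above, of the protein-coding genes C04C11.25, W09G10.9 and sor-3 respectively.

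The summits with the highest score on the other chromosomes were lower. On chromosome V it was T23F1.t2 (proline), whose summit with a score of 48.3 also lay in the window of T23F1.t1 (lysine) and in the promoter of pqn-71. On chromosome IV it was K08E7.t1 (lysine, in an intron of the ABC transporter gene pgp-1) with a score of 49.9 and ranks of 831 and 779. On chromosome I it was T22A3.t1 (glycine, in an intron of set-18) with a score of 36.4 and ranks of 1411 and 1292.

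By chromosome, X held 276 of the 612 tRNA genes (45.1%) on 17.7% of the nuclear genome's length, and 43 of the 64 genes with an IDR-thresholded summit. On X, 43 of 276 genes (15.6%, interval 11.8% to 20.3%) had one, against 21 of 336 on the autosomes (6.25%, interval 4.12% to 9.37%). The corresponding shares of genome stretches were 1.04% on X and 0.789% on autosomes. The autosomes ranged from 2 of 71 genes on IV (2.82%) to 5 of 57 on II (8.77%), with 6.06% on I, 7.81% on III and 6.41% on V. From the 1803 highest peaks of replicate 1 alone, 15.2% of genes on X and 5.36% on autosomes had a summit, and from those of replicate 2 alone 16.7% and 9.82%. X was thus higher in each replicate, by 9.86 and 6.85 percentage points. In the pooled list the gap was smaller in proportion, with 54.0% on X (stretches 8.83%) and 43.5% on autosomes (stretches 7.13%), and chromosomes II (54.4%) and III (53.1%) were close to X. Of the 55 summits 37 were on X (67.3%), while 358 of the other 1729 nuclear summits were (20.7%).

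In the IDR-thresholded list, position inside an intron went with a lower share on X and with a similar share on the autosomes. On X, the pooled and replicate 1 lists did not show this, and the replicate 2 list had a slightly lower share in introns. In all, 22 of 283 genes in introns of protein-coding genes had an IDR-thresholded summit (7.77%, interval 5.19% to 11.5%), against 42 of 329 genes elsewhere (12.8%, interval 9.58% to 16.8%). With the highest peaks of either replicate alone, the difference of -4.99 percentage points was -2.32 and -1.15. Genome stretches centred in introns had one in 0.642%, and those centred outside protein-coding genes in 1.41%. Fewer of the genes on X lie in introns (34.4%) than of those on autosomes (56.0%). Within X, the shares were 10 of 95 in introns (10.5%) and 33 of 181 elsewhere (18.2%), and the intervals overlap (5.82% to 18.3% and 13.3% to 24.5%). Within the autosomes, they were 12 of 188 (6.38%) and 9 of 148 (6.08%). Pooled summits lay at 47.3% of intronic genes and 48.9% of the others. Within X, pooled summits lay at 54.7% in introns and 53.6% elsewhere, those of replicate 1 at 58.9% and 51.9%, and those of replicate 2 at 49.5% and 53.0%. Genes on the same strand as their host had a summit in 12 of 161 cases (7.45%) and those on the opposite strand in 10 of 122 (8.20%). The 22 intronic genes lie in 20 host genes, among them him-4 (hemicentin, an extracellular matrix protein), which holds the alanine genes F15G9.t1 and F15G9.t2, egl-17 (a fibroblast growth factor), cye-1 (cyclin E) and brd-1 (the BARD1 homologue).

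**Figure D4:**
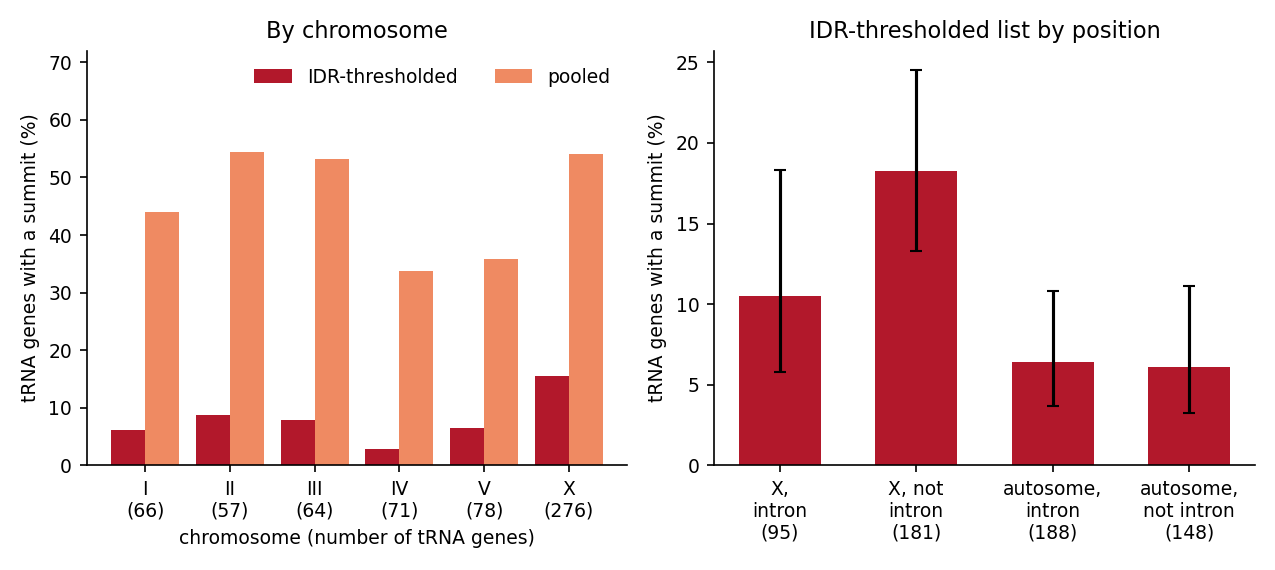
Left, share of tRNA genes (%) with an IDR-thresholded or pooled summit by chromosome; right, share with an IDR-thresholded summit by X or autosome and intron or not, with 95% Wilson intervals as bars. X outside introns is highest at 18.2%, and the autosomal classes are at 6.38% and 6.08%.

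The share differed little between single and clustered tRNA genes, and the sign of the difference turned when clusters were joined within 500 bp. With neighbours within 1000 bp joined, 376 genes were single and 236 formed 100 clusters. A summit was found at 41 single genes (10.9%, interval 8.14% to 14.5%) and 23 clustered genes (9.75%, interval 6.58% to 14.2%). Of 78 pairs, 11 had an IDR-thresholded summit at either gene (14.1%) and 52 a pooled one. Pairs pointing away from each other had one in 4 of 37, pairs pointing towards each other in 4 of 15 and pairs in tandem in 3 of 26. Of 14 clusters of 3 genes, 2 had one, and of 4 clusters of 4 genes, 1 had one. The 4 clusters of 5 or 6 genes, with 22 genes in all, had 0.

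By amino acid, genes for 19 of the 20 standard amino acids had an IDR-thresholded summit. The share of genes was highest for proline, with 8 of 42 (19.05%, interval 9.98% to 33.3%), and leucine, with 7 of 39 (17.9%, interval 8.98% to 32.7%). Among the proline genes, F46G11.t1 and F46G11.t2 share the same summit, as do W09D6.t1 and W09D6.t2, and C16B8.t2 and C16B8.t3. The proline share and its interval thus rest on fewer summits than genes, whereas each leucine gene had a summit of its own. Lysine had 6 of 46, glutamate 6 of 41, glycine 5 of 55 and serine 4 of 39. The glutamine genes had 0 of 27, which allows a share of up to 11.1% and so includes the share of all members, and 12 of them had a pooled summit. The intervals of proline and leucine overlap that of all members, and no difference between amino acids was tested.

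Gene sequences with copies had a summit more often than single-copy sequences, in count. The 612 genes hold 200 distinct sequences, and 469 genes have an identical copy elsewhere. With 200 bp on both sides, 0 windows were identical to another. An IDR-thresholded summit lay at 57 of 469 genes with a copy (12.2%, interval 9.50% to 15.4%) and at 7 of 143 without (4.90%, interval 2.39% to 9.76%). On X these were 38 of 219 (17.4%) and 5 of 57 (8.77%), and on the autosomes 19 of 250 (7.60%) and 2 of 86 (2.33%). The pooled list gave 52.2% and 34.97%. The effect of shared sequence on read placement was not tested.

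Copies of the same gene differed among themselves. Of the 24 copies of the proline sequence printed above, 6 had an IDR-thresholded summit and 17 a pooled one. The 6 include the F46G11 and W09D6 pairs, in each of which both genes share the same summit. The glycine sequence with 29 copies had 3 and 17, the lysine sequence with 25 copies 3 and 14, and the aspartate sequence with 21 copies 3 and 9. Of 57 sequences with at least 2 copies, 31 had a summit at some copy and 1 at all of them.

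The B box and the T run are carried by nearly all members and so hardly divide them. The B box letters were in 587 genes (95.9%), of which 62 had an IDR-thresholded summit (10.6%), and 2 of the 25 genes without the letters had one (8%), the C16B8 genes printed above. These 2 genes share the same summit, which lies inside C16B8.t2. A run of at least 4 T within 20 bp after the gene was found at 602 genes.

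The sequence around summits at tRNA genes was compared with that around the other 1729 nuclear IDR-thresholded summits, within 100 bp of the summit and on both strands. The B box letters were found at 49 of the 55 summits (89.1%), at 5.03% of the other summits and in 7.16% of windows of the same length over the genome. Windows centred on all 612 tRNA genes held them in 96.1%, so their presence at these summits follows from the choice of windows at tRNA genes. CAGGTG, the E-box that ZEB proteins are known to bind, was found at 1 of the 55 (1.82%), at 1.91% of the other summits and in 4.88% of genome windows. That match, at the summit of F02D10.t2, lies inside the serine tRNA gene itself. GAGAGA was found at 22 (40%), against 50.1% of the other summits and 9.99% of genome windows. CGTCTC was found at 8 (14.5%), against 34.5% and 5.42%. ACGCAG was found at 17 (30.9%), against 27.5% and 3.81%. At several of these 17, among them W09G10.t1, C06G1.t1, C43G2.t1, ZK678.t1, R04D3.t2 and F59C12.t3, a match lies inside the tRNA gene itself. The ACGCAG share therefore follows in part from the choice of windows at tRNA genes. CACACA was found at 5 (9.09%), against 31.2% and 8.38%. In windows centred on all 612 tRNA genes CAGGTG was in 8.33%, GAGAGA was in 16.8%, CGTCTC in 5.88%, ACGCAG in 14.9% and CACACA in 9.15%. The 22 summits with GAGAGA were all on X except those at C14B9.t1 (chromosome III) and F15B9.t1 (chromosome V). X held 67.3% of the 55 summits and 20.7% of the other summits, and the shares of these sequences were not compared within chromosomes. Mean GC content was 47.5% ± 4.37 (SD over 55 summits) at tRNA genes and 45.7% ± 6.61 (SD over 1729) elsewhere.

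Few summits at tRNA genes were also in a protein-coding promoter. This was so for 9 of the 55 (16.4%), against 710 of the other 1729 (41.1%), and the nearest protein-coding start was a median of 1509 bp away, against 739 bp. The same values over all tRNA genes were not computed, so these do not set the genes with a summit apart from other tRNA genes.

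The replicates shared most of their tRNA genes. The 205 genes with a summit in both were 66.99% of those of replicate 1 and 70.0% of those of replicate 2. The corresponding shares for genome stretches were 33.7% and 27.7%. The base rates differ, however. Replicate 1 had a summit at 50% of all tRNA genes and in 10.9% of stretches, and replicate 2 at 47.9% and in 13.3%. The higher shares at tRNA genes therefore do not show that the replicates agree better there. Of the rest, 101 were found in replicate 1 only and 88 in replicate 2 only. Genes found in both had median ranks of 3414 in replicate 1 and 2648 in replicate 2, and genes found in a single list had 8068 and 11575. Across the 205 genes Spearman's rho of the ranks was 0.535, given as a description because neighbouring and identical genes share summits and reads. Among the 64 genes with an IDR-thresholded summit it was lower, at 0.261. All 64 genes with an IDR-thresholded summit had a summit in both replicates, for K02B12.t1 in replicate 2 from another peak, and 52 were within the 1803 highest ranks of replicate 1 and 54 within those of replicate 2. Counted as summits, 34 of the 55 were within the 1803 highest ranks of both replicates.

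Some members were uneven between replicates. K02B12.t1 (glutamate, in an intron of zhp-3 on chromosome I) was ranked 1248 in replicate 1 and 27988 in replicate 2, where its score was 3.11. The replicate 2 summit was 251 bp from the IDR-thresholded summit and outside that peak, so that rank belongs to another peak in the window. It was the only one of the 55 summits for which this held in either replicate. ZK678.t1 (leucine, on X) was ranked 6613 in replicate 1 and 668 in replicate 2, and its score of 29.97 was the lowest of the 55. Conversely, 141 genes had a summit in both replicates and none in the IDR-thresholded list. The best placed of these were F14B8.t1 (leucine, in an intron of pes-23, ranks 2035 and 1536), F41A4.t1 (aspartate, ranks 2112 and 1491), F22B7.t4 (phenylalanine, in an intron of F22B7.9, ranks 2332 and 2271) and K02D7.t1 (aspartate, ranks 1796 and 2413). These 4 were ranked close to the 1803 peaks of the IDR-thresholded list in both replicates.

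**Figure D5:**
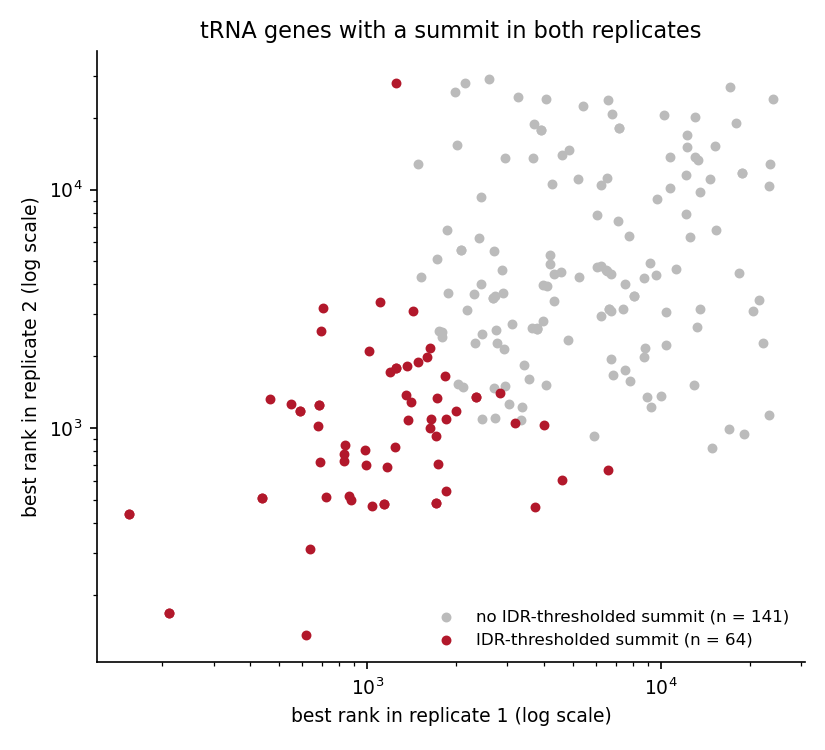
Best rank of a summit at each tRNA gene in replicate 1 (x axis, log scale) and replicate 2 (y axis, log scale) for the 205 genes with a summit in both; lower ranks are higher scores. The 64 genes with an IDR-thresholded summit lie mostly at the lower left, and K02B12.t1 lies apart at ranks 1248 and 27988, the latter from another peak in its window.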

How the data were processed

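ZAG-1 ChIP-seq peaks of 2 biological replicates were used as deposited in ce11 (WBcel235). Per the deposited file list, each replicate's candidates came from its alignment and a control alignment, the pooled list from both replicates, and the IDR-thresholded list from these 3. Which caller, filters and threshold made them is not given in the sources used here. Each list holds the authors' score per peak, the authors' −log10 q-value, which was not used for ranking, and the deposited summit offset. The scale of the score is not stated, so levels were not compared between lists. The ce10 lists, alignments and signal were not used here, so depth is unknown and intervals (95%, Wilson) and the limits for a count of 0 (3 counts) cover counting only.

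A tRNA gene counted when a summit lay in the gene extended by 200 bp. Genes came from Ensembl 115 and amino acids and pseudogenes from RefSeq. Genome stretches of 472 bp, the median window, gave the background. Single genes had no other tRNA gene within 1000 bp. No test was run: there is 1 group, and genes are not replicates. The members and lists were chosen with earlier results of these data known. Named were the 12 highest IDR-thresholded summits, the best of each chromosome, the 2 most uneven in rank, 3 clusters with most such genes (the 3 highest by score of 9 tied at 2 genes), the 4 best placed genes without one, the 4 largest families and list members with a peak; C16B8.t2, C16B8.t3 and the host genes beyond these were picked after their values were seen. Alternatives were other windows, peak overlap, fewer peaks, each replicate alone, other cluster and intron rules; splits by X and by intron were chosen after seeing the data. Counting was tested on planted peaks with Python 3.11.15, pandas 2.3.3, numpy 2.4.6 and scipy 1.17.1; figures used matplotlib 3.10.9.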

Additional observations from a re-analysis of the deposited data

How the results depend on the processing

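Of 41 alternative values, 19 stayed close to the value reported, 19 moved and 3 changed sign. The count of genes with an IDR-thresholded summit (64) was 21 with no flank and 28 with the higher-scoring 50% of peaks; it was 59 at 100 bp, 67 at 500 bp, 75 at 1000 bp and 60 to 79 with either replicate alone. The count of summits (55) was 21 under both of the first changes. Genes with a summit in both replicates (205) were 25 with no flank, 353 at 1000 bp, 42 with the 1803 highest peaks of each replicate and 105 with the 5000 highest.

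The difference of intronic from other genes (-4.99 percentage points) was -4.08 for same-strand hosts, -2.32 to -1.15 with either replicate alone, -7.71 on X and 0.302 on autosomes, where its sign turned. Clustered less single genes (-1.16) gave 2.62 with clusters of 500 bp, where its sign turned, -0.648 with 5000 bp and -3.08 to -2.85 with either replicate alone. X less autosomes (9.33) was 12.6 with clusters counted once, 4.14 within introns, 12.2 outside them and 6.85 to 9.86 with either replicate alone. The median summit position (12 bp) was 12 with a window of 500 bp and -1 to 18 with either replicate alone. The cause of these changes was not tested. No paired analysis was possible because there is 1 group.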
